A study of Mus musculus with 6 samples.

Results

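The 9 genes examined here, of ion transporters, channels and a cyclase, were grouped as regulators of membrane potential, internal pH, calcium and cyclic AMP (cAMP) in sperm. They are Kcnu1, Lrrc52, Slc9c1, Slc9b1, Slc9b2, Hvcn1, Adcy10, Atp1a4 and Atp2b4. The grouping does not show that each acts in mouse sperm, and Slc9b2 and Hvcn1 had few reads here. They were taken by symbol from the 53700 gene identifiers of the deposited tables, and each matched 1 identifier. Total RNA of whole testes was sequenced from 3 mice of genotype MSL3 WT and 3 of genotype MSL3 cKO, the latter described as conditional knockouts of a floxed Msl3 allele. All 6 mice were at postnatal day 45 and carry the strain label Msl3em1Forni/C57BL/6J. The recombinase that removes the floxed part, and the cells in which it acts, are not given in the sources used here. The labels call the samples biological replicates and do not say whether any mice were littermates.

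Sperm leave the testis unable to fertilise and are switched on in the female tract. Bicarbonate there activates the soluble adenylyl cyclase Adcy10, and the cAMP it makes drives protein kinase A and the beat of the tail. The interior of the cell becomes more alkaline and the potassium channel Kcnu1 opens, which makes the membrane potential more negative. Round and elongating spermatids make most of this machinery in the testis, so its mRNA is read there before the proteins work. In bulk tissue, fewer cells of a type and less RNA per cell cannot be told apart.

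The libraries held 56991431 to 73766444 reads assigned to genes. Levels are given as CPM, read counts scaled to a common library size, with library sizes scaled by the trimmed mean of M values. Msl3 itself was at 16.9 ± 1.68 CPM (SD, n = 3) in WT and 15.6 ± 0.649 CPM (SD, n = 3) in cKO testes, with an edgeR adjusted p of 0.551. Its count does not separate the groups, so the groups are named by their labels and every direction is that of the libraries labelled cKO. The 8 elongating spermatid markers were all tested, none was called, and their summed level was 18581 to 20594 CPM in WT and 16538 to 20108 CPM in cKO libraries. At an unadjusted edgeR p under 0.05, 1 of 8 was lower, Tnp1, with a log2 fold change of -0.40 and overlapping groups. Over all genes tested 6.54% were lower at that p. The 8 round spermatid markers, given beside Adcy10, summed to less in every cKO than in every WT library. Of 8 epididymal markers, 4 had at most 3 reads in every library and Lcn8 had 0. Only Cst8 passed the filter on low counts, with 221, 259 and 251 CPM in WT and 203, 172 and 197 CPM in cKO libraries. Its log2 fold change was -0.35 (edgeR unadjusted p 0.00122, adjusted p 0.276), and the groups did not overlap.

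Of the 9 genes, 8 passed the filter on low counts, and none passed an edgeR adjusted p of 0.05. Over all 21902 genes tested 0.0183% passed, 0.00913% as higher in cKO, and the count among the 8 is read against those shares. At an unadjusted p under 0.05 there were 2, Adcy10 and Atp2b4, both higher in cKO, where 13.9% of all genes were under that value, 7.33% higher and 6.54% lower. The groups did not overlap in 2 of the 8, Lrrc52 and Adcy10, both higher in cKO, against 18.9% of all genes, 10% higher and 8.85% lower. The log2 fold change was above 0 in 7 of the 8 and in 50.7% of all genes. The shares above 0 and under an unadjusted p of 0.05 differed with transcript length, as given below. The median log2 fold change of the 8 was 0.11, and that of all genes tested was 0.003. The plot of levels by library shows how close the groups lay for most of them.

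**Figure D1:**
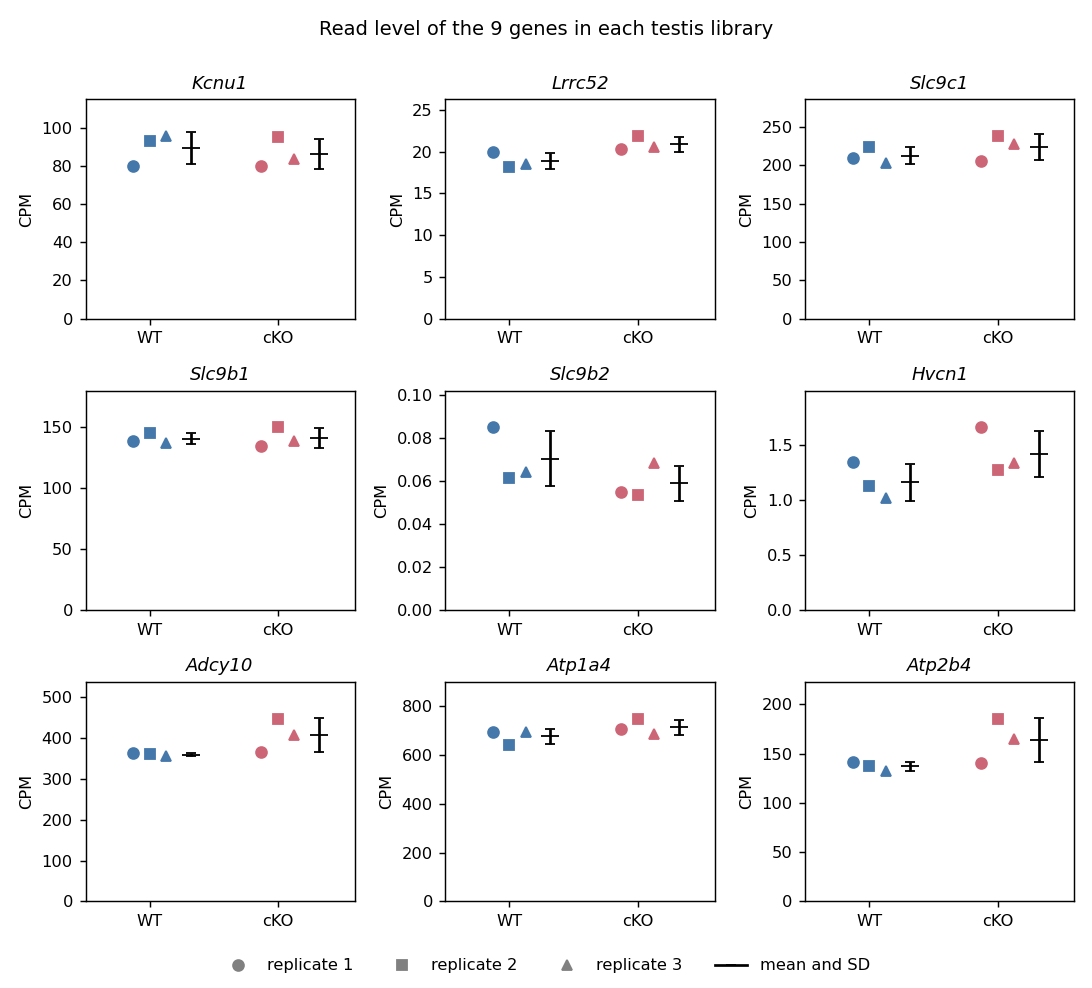
CPM (vertical axis, starting at 0) of each of the 9 genes in the 3 WT libraries (blue) and the 3 cKO libraries (red), with symbols for the replicate number and the mean with SD in black. The cKO libraries 2 and 3 lie above all WT libraries for Adcy10 and Atp2b4, and Slc9b2 stays under 0.1 CPM in all 6.

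The potassium channel of sperm is built from Kcnu1, also called SLO3, which forms the pore, and Lrrc52, a leucine-rich repeat protein that shifts its opening to less alkaline pH and less positive voltage. Kcnu1 (ENSMUSG00000031576, chr8:25849623-25937939, + strand, GRCm38) had 79.8, 92.9 and 95.6 CPM in the WT libraries and 79.7, 95.1 and 83.6 CPM in the cKO libraries. The groups overlapped fully, with a low and a high library in each. The log2 ratio of cKO to WT was -0.06 (SE 0.088; edgeR adjusted p 0.825), and the 95% interval of the cKO to WT ratio ran from 0.843 to 1.10.

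Lrrc52 (ENSMUSG00000040485, chr1:167445669-167466780, - strand) had 19.9, 18.1 and 18.5 CPM in the WT libraries and 20.2, 21.9 and 20.5 CPM in the cKO libraries. Every cKO library was above every WT library, though the lowest cKO library exceeded the highest WT library by less than the SD of either group. Its log2 fold change came to 0.15 (SE 0.076, edgeR adjusted p 0.405), with a ratio between 0.987 and 1.24.

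Compared per kilobase of exon, the auxiliary subunit had 0.634 to 0.830 times the level of the pore subunit in the 6 libraries. That ratio was 0.695 ± 0.104 (SD, n = 3) in WT and 0.795 ± 0.0397 (SD, n = 3) in cKO libraries, and the groups overlapped. Both subunits were thus present as mRNA at levels of the same order. Over the 6 libraries their log2 CPM had a Pearson r of -0.24, a description of points that share library, depth and group. The genes whose log2 CPM followed Kcnu1 most closely over the 6 libraries, among 16829 others with a mean of at least 1 CPM, were Srsf11, a splicing factor gene (r = 0.996), Gm381 (r = 0.990) and Gm10827 (r = 0.989). With 6 points, 280 genes had an r above 0.9.

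Proton transport is represented by 3 exchangers and a channel. Slc9c1, the sperm sodium/proton exchanger, carries a voltage sensor and a cyclic nucleotide binding domain and is needed for normal Adcy10 protein in sperm. Slc9b1 and Slc9b2 are paralogous sodium/proton antiporters: Slc9b1 is known from the sperm tail, and Slc9b2 from many tissues, osteoclasts included. Hvcn1 is a voltage-gated proton channel, best known in leukocytes and in human sperm.

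Slc9c1 (ENSMUSG00000033210, chr16:45535309-45607001, + strand) had 210, 225 and 203 CPM in the WT libraries and 205, 238 and 228 CPM in the cKO libraries. The highest values were in cKO replicates 2 and 3, and cKO replicate 1 lay within the WT range. On the log2 scale the difference was 0.07 (SE 0.074, edgeR adjusted p 0.695), with a ratio between 0.940 and 1.18.

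Slc9b1 (ENSMUSG00000050150, chr3:135348029-135397827, + strand) had 139, 146 and 137 CPM in the WT libraries and 134, 150 and 139 CPM in the cKO libraries. The 2 groups were nearly level, with a log2 ratio of 0.01 (SE 0.068, edgeR adjusted p 0.980) and a ratio between 0.906 and 1.11. Its sign turned in 6 of the 15 alternatives, so no direction is given.

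Slc9b2 (ENSMUSG00000037994, chr3:135307700-135345387, + strand) had 5, 4 and 4 reads in the WT libraries and 4, 3 and 4 reads in the cKO libraries. These counts were too low to be tested and showed no separation of the groups. Slc9b2 ends 2641 bases before Slc9b1 begins, on the same strand, so the pair are neighbours with very different output in this tissue. Per kilobase of exon Slc9b1 was 2431 to 4163 times the level of Slc9b2 in single libraries, ratios that rest on 3 to 5 reads of the latter. Apart from these reads, 5 reads of the other strand fell in Slc9b2 over the 6 libraries.

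Because the neighbours differ so widely, the 250 bases before the RefSeq start of each are shown, read 5′ to 3′ on the strand of the gene (GRCm38.p6), with CpG dinucleotides in capitals. The Slc9b1 window is chr3:135347779-135348028 and the Slc9b2 window chr3:135307450-135307699, both + strand, and both end at a transcript start of GENCODE M21.
Slc9b1: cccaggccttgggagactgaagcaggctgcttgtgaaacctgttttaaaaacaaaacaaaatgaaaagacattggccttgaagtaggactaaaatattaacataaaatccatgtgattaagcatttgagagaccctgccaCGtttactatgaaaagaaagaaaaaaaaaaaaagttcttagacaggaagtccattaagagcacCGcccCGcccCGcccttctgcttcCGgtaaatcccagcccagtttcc
Slc9b2: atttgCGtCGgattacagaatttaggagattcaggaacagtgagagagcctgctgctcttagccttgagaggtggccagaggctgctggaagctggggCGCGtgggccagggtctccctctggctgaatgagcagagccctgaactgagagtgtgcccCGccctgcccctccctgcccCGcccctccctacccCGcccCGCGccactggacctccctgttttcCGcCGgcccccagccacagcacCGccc
The window of the gene with few reads held 12 CpGs and 65.6% G and C, and that of the gene with many reads 5 CpGs and 42.4%. The median over all 32851 RefSeq windows of this length was 6 CpGs, with quartiles of 2 and 16, and both counts lie between these. The median share of G and C was 52.4%, with quartiles of 45.2% and 61.2%, so that of Slc9b1 lay below the lower and that of Slc9b2 above the upper quartile. No methylation was measured here.

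Hvcn1 (ENSMUSG00000064267, chr5:122206804-122242297, + strand) had 1.34, 1.12 and 1.01 CPM in the WT libraries and 1.66, 1.27 and 1.34 CPM in the cKO libraries. The highest level was in cKO replicate 1, the groups overlapped, and the count was 63 reads in WT replicate 3 and 121 in cKO replicate 1. The log2 ratio of cKO to WT was 0.30 (SE 0.18, edgeR adjusted p 0.466), and the wide interval of the ratio, 0.943 to 1.61, goes with the few reads. Without cKO replicate 1 the log2 ratio was 0.167, and without WT replicate 1 it was 0.419. Exons of Hvcn1 overlap those of Tctn1 on the opposite strand, and 7582 reads of that strand fell in Hvcn1 over the 6 libraries, against 485 on its own. Without strand, 165 reads remained countable.

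Hvcn1 is also expressed by white blood cells, so their markers are given beside it. The 8 lymphocyte markers summed to 3.98 to 5.86 CPM in WT and 4.11 to 5.70 CPM in cKO libraries. The 8 macrophage markers summed to 116 to 130 CPM in WT and 117 to 130 CPM in cKO libraries. In the macrophage list 3 of 8 genes were lower and 1 higher at an unadjusted p under 0.05. Over all genes tested 6.54% were lower and 7.33% higher at that p. No gene of either list was called, 1 lymphocyte marker had at most 3 reads in every library and none of the 16 was at 0 throughout. Their part in the Hvcn1 level was not tested.

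Adcy10 (ENSMUSG00000026567, chr1:165485183-165576774, + strand), the bicarbonate-activated source of cAMP, had 363, 360 and 355 CPM in the WT libraries and 365, 447 and 408 CPM in the cKO libraries. The WT mice were nearly level at 360 ± 4.13 CPM (SD, n = 3), and the cKO mice spread more widely at 407 ± 41.2 CPM (SD, n = 3). The groups did not overlap, but cKO replicate 1 was only just above the highest WT library. On the log2 scale cKO exceeded WT by 0.18 (SE 0.077), at an unadjusted p of 0.0403 and an edgeR adjusted p of 0.342. The ratio had 95% limits of 1.01 and 1.27. Without cKO replicate 2 the log2 ratio was 0.106 (edgeR adjusted p 0.639), and without cKO replicate 1 it was 0.25 (edgeR adjusted p 0.077).

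Calcium and sodium pumps complete the group. Atp1a4 is the sodium pump alpha subunit specific to male germ cells and is needed for sperm motility, and Atp2b4, also called PMCA4, expels calcium from the sperm tail. Atp1a4 (ENSMUSG00000007107, chr1:172223513-172258414, - strand) had 696, 639 and 695 CPM in the WT libraries and 706, 749 and 685 CPM in the cKO libraries. The groups overlapped, with a log2 fold change of 0.08 (SE 0.067, edgeR adjusted p 0.643) and a ratio between 0.952 and 1.17.

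Atp2b4 (ENSMUSG00000026463, chr1:133699457-133801041, - strand) had 141, 137 and 132 CPM in the WT libraries and 140, 185 and 165 CPM in the cKO libraries. Replicates 2 and 3 of cKO stood above all WT mice, and cKO replicate 1 lay within the WT range. The means were 137 ± 4.53 CPM (SD, n = 3) and 164 ± 22.5 CPM (SD, n = 3). The log2 ratio was 0.26 (SE 0.092), at an unadjusted p of 0.0164, an edgeR adjusted p of 0.306, and 95% limits of the ratio of 1.04 and 1.37. Without cKO replicate 1 it was 0.35 with an edgeR adjusted p of 0.0261, in a fit that called 2.82% of 22255 genes, 2.47% as higher in cKO. That was the only call of any of the 9 genes in the 15 alternatives, and without cKO replicate 2 the log2 fold change was 0.16 (edgeR adjusted p 0.597).

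**Figure D2:**
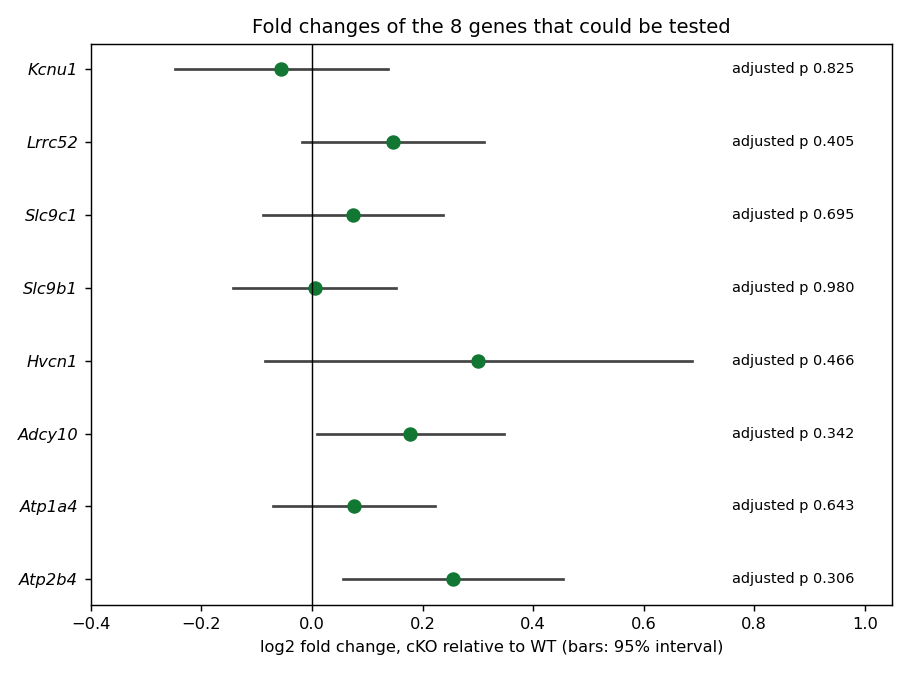
Log2 fold change of cKO relative to WT (horizontal axis) with its 95% interval for the 8 genes that were tested, and the edgeR adjusted p of each at the right. The intervals of Adcy10 and Atp2b4 lie above 0 before adjustment over all genes, and no adjusted p is under 0.3.

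Adcy10 and Atp2b4 varied together, with a Pearson r of 0.996 over the 6 libraries, the highest of the 28 pairs among the 8 genes and again a description of points that share library, depth and group. Pairs of other genes ranged down to -0.82, for Kcnu1 and Hvcn1. Genes outside the 8 were not searched for an r as high with either, and both were high in libraries where long transcripts were high, as given below. The 250 bases before a RefSeq start of each, with CpG dinucleotides in capitals, are shown because these 2 genes moved together. The windows are chr1:165484933-165485182 (+ strand) for Adcy10 and chr1:133753748-133753997 (- strand) for Atp2b4 (GRCm38.p6). The Atp2b4 start is internal to the M21 gene, and which start the testis uses was not measured.
Adcy10: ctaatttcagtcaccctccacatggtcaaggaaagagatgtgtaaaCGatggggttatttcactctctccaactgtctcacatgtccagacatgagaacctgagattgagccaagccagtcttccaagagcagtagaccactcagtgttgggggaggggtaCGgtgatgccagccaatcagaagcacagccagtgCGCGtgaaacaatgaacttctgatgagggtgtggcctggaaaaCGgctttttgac
Atp2b4: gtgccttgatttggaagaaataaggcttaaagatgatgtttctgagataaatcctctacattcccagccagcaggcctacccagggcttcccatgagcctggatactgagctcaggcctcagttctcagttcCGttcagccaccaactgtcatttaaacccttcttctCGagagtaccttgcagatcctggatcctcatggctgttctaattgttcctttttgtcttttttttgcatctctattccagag
The cAMP response element TGACGTCA, its first 5 bases TGACG, and the RFX half-site GTTGCC were searched on both strands, TGACG also lying within TGACGTCA. None of the 3 was found in the windows of the 7 genes that had one, whereas 1.55%, 17.8% and 10.4% of the 32851 windows held them. The windows of Slc9c1 and Atp1a4 did not end at a transcript start of GENCODE M21. No match says only that these letters are absent from these windows.

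The libraries also differed by transcript length, and the 2 genes with the lowest p have the longest transcripts of the 9. For Atp2b4 the principal transcript is 11725 bases, for Adcy10 5210 bases, and for the other 6 tested genes 1143 to 3836 bases. Among 734 genes over 8 kb with a mean of at least 1 CPM, the median deviation from the mean of the 6 libraries was -0.11, -0.06 and -0.11 on the log2 scale in WT and -0.10, 0.25 and 0.14 in cKO libraries. Atp2b4 had -0.08, -0.12 and -0.17 in WT and -0.09, 0.31 and 0.14 in cKO libraries. Genes of 4 to 8 kb had medians of -0.03, -0.07 and -0.05 in WT and -0.01, 0.09 and 0.06 in cKO libraries. Adcy10 had -0.07, -0.08 and -0.10 in WT and -0.07, 0.23 and 0.10 in cKO libraries. The same 2 libraries, cKO replicates 2 and 3, were thus the high ones for long transcripts in general, for Atp2b4 and for Adcy10.

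Genes over 8 kb had a median log2 fold change of 0.20, and 63.8% of them lay below Atp2b4. Genes of 4 to 8 kb had a median of 0.10, and 74.8% of these 3823 genes lay below Adcy10. With a correction of each library for GC content and transcript length, an alternative added once values were known, the log2 fold change was 0.05 for Atp2b4 and 0.09 for Adcy10 (edgeR adjusted p 0.875 and 0.701).

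Lrrc52 went the other way from genes of its length. The 3866 genes of 1 to 2 kb had a median log2 fold change of -0.06, and 95% of them lay below its 0.15. With the correction its log2 fold change was 0.24, with an edgeR adjusted p of 0.480. The part of transcript length in these differences was not tested further.

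**Figure D3:**
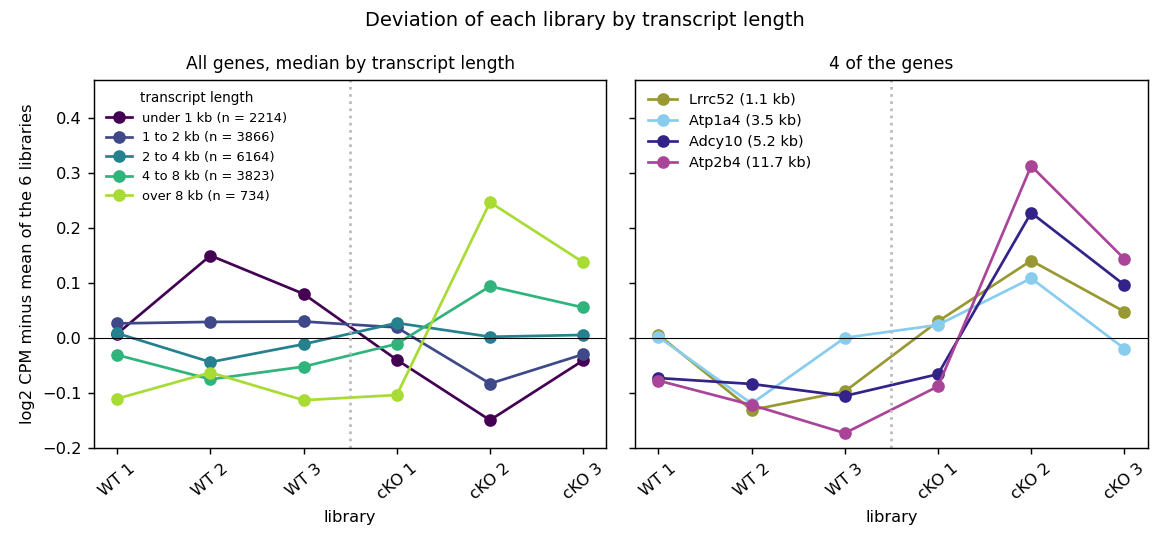
Log2 CPM minus the mean of the 6 libraries (vertical axis) in each library (horizontal axis), as the median over all genes of 5 length classes (left) and for 4 of the genes with their principal transcript length (right). Genes over 8 kb reach 0.25 in cKO replicate 2 and 0.14 in cKO replicate 3, the libraries in which Atp2b4 reaches 0.31 and 0.14; lines join libraries only to guide the eye.

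Atp2b4 is also made by vessel and muscle cells, whose markers are given beside it. The 8 endothelial markers summed to 47.7 to 49.2 CPM in WT and 49.3 to 58.3 CPM in cKO libraries. The groups did not overlap, but cKO replicate 1, at 49.3, was only just above WT replicate 1, at 49.2. Vwf made up the largest part, with 21.1, 22.1 and 20.9 CPM in WT and 21.6, 28.6 and 26.1 CPM in cKO libraries. Of the 8, 6 had a log2 fold change above 0. At an unadjusted p under 0.05, 2 of 8 were higher, and none was called. Over all genes tested 7.33% were higher and 6.54% lower at that p. The 8 peritubular myoid markers summed to 435 to 468 CPM in WT and 427 to 444 CPM in cKO libraries, with 2 of 8 lower (Tagln and Tpm2) and 1 higher (Myh11) at an unadjusted p under 0.05 and none called. The smooth muscle myosin gene Myh11 had 34.2, 37.7 and 38.2 CPM in the WT libraries and 33.9, 54.6 and 48.7 CPM in the cKO libraries. It was high in cKO replicates 2 and 3, as Atp2b4 and long transcripts in general were. Myh11 was not compared with genes of its own length. Of the 8 myoid markers, 2 had a log2 fold change above 0, and the median of the list was -0.08. Vwf, Tagln, Tpm2 and Myh11 were named after their values had been seen. No marker of either list was at 0 throughout. Adcy10 is a germ cell gene, and the 8 round spermatid markers summed to 1300 to 1420 CPM in WT and 1244 to 1293 CPM in cKO libraries, lower without overlap, while Adcy10 was higher. Of these markers 4 of 8 were lower at an unadjusted p under 0.05, beside 6.54% of all genes, and 4 of 8 were lower without overlap, beside 8.85%. Of shorter genes, 564 of 2214 under 1 kb and 447 of 3866 of 1 to 2 kb were lower at that p. The round spermatid markers were not compared with genes of their own length. None of these 8 markers was called. The part of cell composition in either level was not tested.

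Levels of different genes were compared per kilobase of merged exons. Atp1a4 was highest, at 190 ± 9.60 CPM per kb over the 6 libraries (SD), above 98.8% of all tested genes. Slc9c1 (53.8 ± 3.48), Adcy10 (43.8 ± 4.21) and Slc9b1 (38.2 ± 1.56) followed, and the ranges of Slc9c1 and Adcy10 overlapped. Kcnu1 (21.3 to 25.6), Lrrc52 (15.8 to 19.1) and Atp2b4 (10.8 to 15.1) came next, given as lowest to highest library, with ranges that did not overlap. Hvcn1, at 0.362 ± 0.0621, and Slc9b2, at 0.0118 ± 0.00209, were far below. With the length of the principal transcript instead, Adcy10 (73.6) and Slc9b1 (62.6) moved above Slc9c1 (56.9), so the order of these 3 depends on the transcript assumed.

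**Figure D4:**
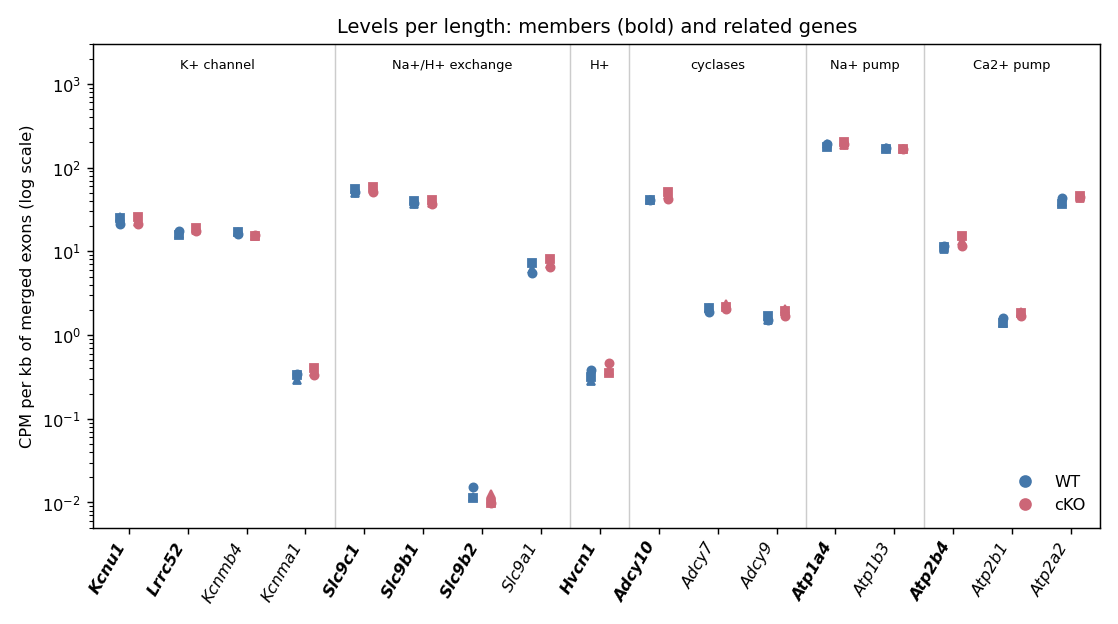
CPM per kb of merged exons on a log axis for the 9 genes (bold names) and related genes, each library as a point (blue WT, red cKO, symbols for the replicate number), grouped by function. Kcnu1 exceeds Kcnma1 and Atp2b4 exceeds Atp2b1 in all 6 libraries, and Slc9b2 lies near 0.01.

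Atp2b4 and Kcnu1 were each set beside a well known relative of other tissues, pairs chosen after the values had been seen. Atp2b4 was 6.73 to 8.16 times the level per kb of Atp2b1, the general plasma membrane calcium pump, or 3.29 to 3.99 times by principal transcript. Kcnu1 was 61.8 to 88.5 times that of Kcnma1, the calcium-activated SLO1 channel, or 17.1 to 24.5 times by principal transcript. Both genes stood above these relatives in all 6 libraries, by either length. Other relatives gave other orders: Atp2b4 was 0.259 to 0.330 times the level per kb of the calcium pump gene Atp2a2. Kcnu1 was 1.33 to 1.69 times that of Kcnmb4 by merged exons but 0.578 to 0.735 times by principal transcript.

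The related genes comprised 74 genes in 7 lists, of which 73 were tested. None passed an edgeR adjusted p of 0.05, and 8 (11%) had an unadjusted p under 0.05, 7 higher and 1 lower in cKO, beside 13.9% of all genes tested. Their median log2 fold change was 0.07. The groups did not overlap in 15.1% of them, beside 18.9% of all genes.

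Among the cAMP targets, 14 of 14 were tested and the median was 0.03. Ropn1, a tail protein that binds the anchors of protein kinase A, had 362 ± 36.7 CPM (SD, n = 3) in WT and 289 ± 17.1 CPM (SD, n = 3) in cKO libraries. The log2 ratio was -0.33 (SE 0.083), the edgeR adjusted p 0.276 and the groups did not overlap. Its principal transcript is short, at 875 bases. Its paralogue Ropn1l, the highest of the list at 974 CPM per kb in WT and 976 in cKO, had a log2 fold change of 0.0027.

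Among the cyclases and phosphodiesterases, Adcy9, a membrane cyclase, had a log2 fold change of 0.28 (edgeR adjusted p 0.306). Pde8a, a cAMP-specific phosphodiesterase and the highest of this list at 68.8 CPM per kb in WT and 76.7 in cKO, had one of 0.16 (edgeR adjusted p 0.352). Neither had overlapping groups, and the median of the 14 genes was 0.10. Of 9 relatives of the potassium channel none had an unadjusted p under 0.05. The highest of them was Kcnmb4, a beta subunit of SLO1, at 16.6 CPM per kb in WT and 15.4 in cKO, without overlap, a log2 ratio of -0.11 (edgeR adjusted p 0.465).

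Among the 10 genes of the sodium/proton exchanger list, which includes the scaffold genes Slc9a3r1 and Slc9a3r2, the median was 0.06. Slc9a3r1 was highest, at 15.1 CPM per kb in WT and 17.0 in cKO, and had a log2 fold change of 0.18 (edgeR adjusted p 0.325) without overlap. No other gene of this list had an unadjusted edgeR p under 0.05. Among 9 tested genes of bicarbonate and anion transport the median was 0.10 and none had an unadjusted p under 0.05. The carbonic anhydrase gene Car2 led them at 79.6 CPM per kb in WT and 72.8 in cKO, with a log2 fold change of -0.13.

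Among the 8 sodium pump subunits the median was 0.01. The beta subunit Atp1b3 was the partner gene with the highest level, 170 CPM per kb in WT and 166 in cKO, close to that of Atp1a4, and had a log2 fold change of -0.03. Atp1b2, a beta subunit best known in glia, had 0.22 (edgeR adjusted p 0.313). Of the 31-mers of Atp1a4, 4.76% also occur in transcripts of other genes, the highest share among the 9 genes.

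Among the 9 calcium pumps and exchangers the median was 0.08. Atp2b1 had 22.4 ± 1.64 CPM (SD, n = 3) in WT and 27.7 ± 1.57 CPM (SD, n = 3) in cKO libraries, without overlap, with a log2 fold change of 0.30 (SE 0.080) and an edgeR adjusted p of 0.276. Its principal transcript, 7130 bases, is long like that of Atp2b4. Atp2a2, the calcium pump of the endoplasmic reticulum, was the highest of the list at 39.8 CPM per kb in WT and 44.5 in cKO and had a log2 fold change of 0.16 (edgeR adjusted p 0.352).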

How the data were processed

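Whole-testis RNA of 3 WT and 3 cKO mice was deposited as 1 table of raw read counts per gene and library, in the layout of STAR gene counts; STAR, HTSeq, DESeq2 and the build mm10 are named, without roles or versions, per the submitters' processing notes. The annotation release is not given in the sources used here. The authors' counts on the strand opposite to the read, which hold 96.0% to 96.2% of stranded counts, were used as deposited. Lines that name no gene (14.8% to 16.7% of reads) were left out. Per the file layout, reads that map to several places are set apart from the gene counts, so genes that share sequence can lose some.

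Symbols, coordinates and lengths came from GENCODE M21 (GRCm38), which matched 52147 of 53700 identifiers. Counts were tested with edgeR 4.0.16 in R 4.3.3: a quasi-likelihood F test on group alone, after TMM scaling and filterByExpr (min.count 10). Adjusted p-values are Benjamini-Hochberg over 21902 genes, with a threshold of 0.05. Standard errors came from the F statistic, and intervals are 95%. CPM used TMM-scaled library sizes. Precision is limited by 3 mice per group, and for Slc9b2 by its 3 to 5 reads per library.

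The members, the 7 lists of related genes and the 12 lists of cell markers were chosen with earlier results of these data known. Named related genes are the highest per kb of each list and up to 3 with the lowest unadjusted p under 0.05; some related genes are not reported here. The marker lists were round and elongating spermatids, pachytene spermatocytes, spermatogonia, Sertoli, Leydig, peritubular myoid and endothelial cells, macrophages, lymphocytes, erythroid cells and epididymis. Of 31-mers of the 9 genes, 0% to 4.76% occur in other genes. Alternatives were RLE scaling, library totals, no filter, at least 10 reads in every library, unstranded counts, a replicate block, DESeq2 1.42.0, robust quasi-likelihood, each library left out, a threshold of 0.1 and an added loess correction (span 0.3). Promoter windows are from RefSeq (GRCm38.p6) and were given for 7 of the 9 genes, not Kcnu1 and Hvcn1.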

Additional observations from a re-analysis of the deposited data

How the results depend on the processing

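Of 120 refits of single genes among the 8 tested over 15 alternatives, 113 kept the direction and brought no call. These include Hvcn1 with DESeq2, which had no adjusted p. The exceptions were Slc9b1, which turned negative with library totals alone (-0.0231), without a filter (-0.00491), with at least 10 reads in every library (-0.0033) and without WT replicate 1, WT replicate 3 or cKO replicate 2 (-0.0026, -0.0217 and -0.0395; range -0.0395 to 0.0386 with a library left out), and Atp2b4, called without cKO replicate 1 (0.35). The number of the 9 genes called was 0 in each other alternative, and 0 to 1 with a library left out.

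Over all genes, 4 were called, and 757 without a filter, 2 with unstranded counts and 199 with DESeq2. Leaving out a library gave 1 to 628, the highest without cKO replicate 1, with 116 without WT replicate 1. Among the related genes 0 were called, 2 without a filter (Atp2b1 and Ropn1), 1 with DESeq2 (Ropn1) and 0 to 1 with a library left out (Atp2b1 without cKO replicate 1). The cause was not tested. DESeq2 called none of the 9 genes, and its adjusted p was undefined for Hvcn1.

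Deviations of WT and cKO libraries of the same number correlated at 0.38, 0.26 and -0.07 over genes. Libraries of different numbers were not compared, so these values cannot decide whether the mice were paired. The labels name no pairs, and no pairing was assumed. With the replicate block 49 genes were called in all and none of the 9 or of the related genes.

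Marker lists not given above had 0 genes called. Their summed CPM overlapped between the groups: pachytene spermatocytes 7855 to 7995 in WT and 7326 to 8069 in cKO, spermatogonia 124 to 148 and 128 to 146, Sertoli cells 1172 to 1426 and 1201 to 1557, Leydig cells 883 to 1046 and 806 to 1039, erythroid cells 27.8 to 30.2 and 26.9 to 33.6. At an unadjusted p under 0.05, 2 of 8 Sertoli markers (Sox9 and Wt1) were higher, both without overlap, while Clu made up most of that sum. In the Leydig list 2 of 8 were lower (Hsd17b3 without overlap, and Cyp11a1). In the pachytene list 1 of 8 was lower (Pgk2, log2 fold change -0.17), with overlapping groups. Over all genes tested 7.33% were higher and 6.54% lower at that p. Without overlap 10% were higher and 8.85% lower. The epididymal list summed to 221 to 260 in WT and 172 to 203 in cKO, lower without overlap but nearly all from Cst8. Every other gene of that list was under 0.21 CPM in all libraries, so the sum is not read as a level of epididymis. The cells that the Cst8 reads came from were not tested.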
